A study of Macaca mulatta with 10 samples.

Results

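The genes described here encode 9 components of beta-adrenergic receptor and cyclic AMP (cAMP) signalling: the receptor kinase ADRBK1, the arrestin ARRB2, the G protein subunit GNAS, the adenylyl cyclase ADCY7, the phosphodiesterases PDE4B and PDE4D, the protein kinase A subunits PRKACA and PRKAR1A, and the transcription factor CREM. They were chosen by gene symbol, and all 9 were among the 18622 gene rows of the authors' log2 table. Lymph nodes came from 10 male rhesus macaques, 5 kept in stable and 5 in unstable social conditions, and each animal gave 1 array. Hybridisation was to Illumina bead arrays built for human transcripts, so a macaque transcript that differs from its probe can read low. The stable animals had age labels, with no unit given, of 5.73 to 5.87. Unstable animals 1 to 3 had labels of 6.7 to 6.84, and unstable animals 4 and 5 of 5.62 and 5.61.

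Noradrenaline from sympathetic nerves reaches lymph nodes and acts on beta-adrenergic receptors of immune cells. The receptor activates the stimulatory G protein, adenylyl cyclase makes cAMP, and cAMP frees the catalytic subunits of protein kinase A from its regulatory subunits. Phosphodiesterases break cAMP down, receptor kinases and arrestins switch the receptor off, and transcription factors of the CREB and CREM family carry the signal to genes. Social conditions can alter sympathetic activity, and the question put by the series is whether nodes of animals in unstable conditions express genes differently from those in stable ones.

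No member differed between the groups past the threshold, an adjusted p of 0.05 over all genes with limma. For comparison, 0% of all 18622 genes passed (the smallest adjusted p was 0.42), and 5.13% had an unadjusted p under 0.05, as did 0 of the 9 members. The members' differences ran from -0.08 log2 units for PDE4B to 0.05 for GNAS, 3 higher and 6 lower in unstable animals, against 51.1% of all genes lower. Their median difference was -0.0064, and that of all genes -0.0015. The stable and unstable animals overlapped for all 9 members, while the groups did not overlap for 0.838% of all genes.

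Of the 9 members, 6 exceeded background on at least 3 arrays, as did 44.6% of all genes. The threshold was set on each array at the mode of its log2 values plus 3 SDs, taken from the values under the mode, which came to 6.90. ARRB2, GNAS, ADCY7 and PRKAR1A passed it on all 10 arrays, which 34.3% of all genes did, PDE4B on 9 and PDE4D on 8. PRKACA passed on 1 array as a gene row, although each of its 2 probes, described further on, passed on more. ADRBK1 and CREM passed on none, as did 49.4% of all genes, so that a group difference in either could not be read from these values. A signal at background does not show that the gene was silent in the node. MS4A1, which encodes the B cell surface protein CD20, was also above background on no array, although 5 of 8 B cell markers, CD79B among them, were above it on all 10.

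**Figure D1:**
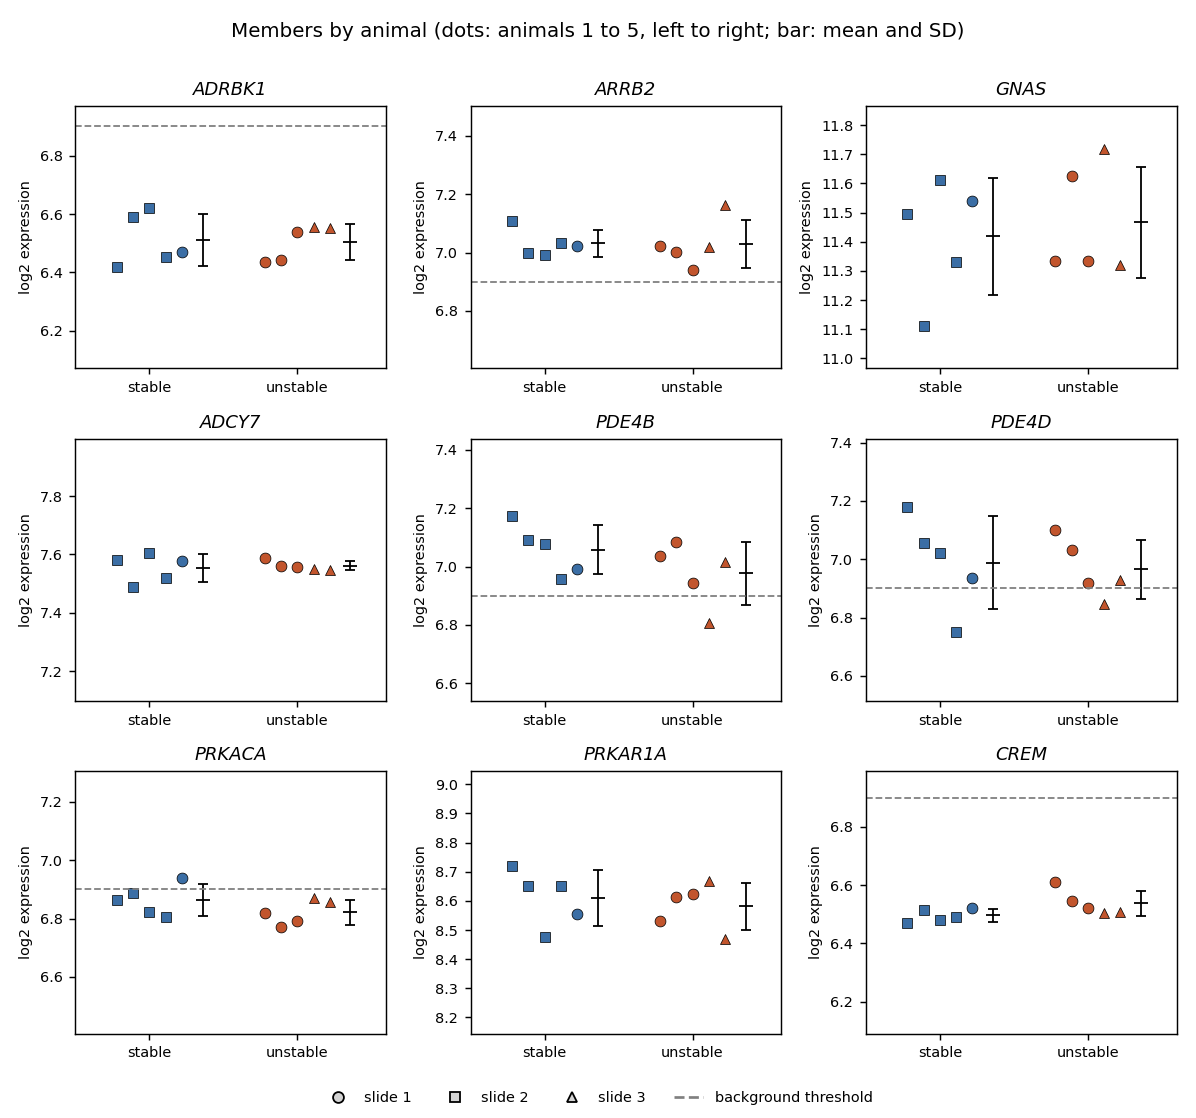
Log2 expression (y axis, each panel 0.9 log2 units high around the gene's own values) of the 9 members in stable and unstable animals 1 to 5, from left to right, with the slide as the marker shape, the mean and SD as bars, and the background threshold as a dashed line where it lies in the panel. The groups overlap in every panel, and ADRBK1 and CREM lie below the threshold on all 10 arrays.

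Of the members that switch the receptor off, ARRB2 exceeded background and ADRBK1 did not, and neither passed the test. ADRBK1 is the older symbol of GRK2, a kinase that phosphorylates agonist-occupied beta-adrenergic receptors. It had log2 values of 6.42, 6.59, 6.62, 6.45 and 6.47 in stable animals 1 to 5 and 6.44, 6.44, 6.54, 6.56 and 6.55 in unstable animals 1 to 5. All of these lay below the threshold, and both the lowest and the highest animal were stable ones. ARRB2 encodes beta-arrestin 2, which binds phosphorylated receptors, uncouples them from the G protein and directs them to endocytosis. Its values were 7.11, 7.00, 6.99, 7.03 and 7.02 in stable animals and 7.02, 7.00, 6.94, 7.02 and 7.16 in unstable ones. Unstable animal 5 was highest and unstable animal 3 lowest, so the stable range lay inside the unstable one. The ARRB2 means were 7.03 ± 0.046 (SD, n = 5) and 7.03 ± 0.082 (SD, n = 5), a difference of -0.0018 (SE 0.043; 95% confidence interval -0.097 to 0.093; limma adjusted p = 0.997). The same difference for ADRBK1 was -0.0064 (SE 0.048; limma adjusted p = 0.997).

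GNAS encodes the alpha subunit of the stimulatory G protein, and its locus gives rise to several further transcripts. Its log2 values were 11.50, 11.11, 11.61, 11.33 and 11.54 in stable animals and 11.33, 11.62, 11.33, 11.72 and 11.32 in unstable animals. The extremes were stable animal 2 at the low end and unstable animal 4 at the high end, and the remaining animals of the groups were interleaved. The means were 11.42 ± 0.201 (SD, n = 5) and 11.47 ± 0.191 (SD, n = 5), with a difference of 0.05 (SE 0.11; limma adjusted p = 0.986). Its 95% confidence interval of -0.20 to 0.29 was the widest of the members and corresponds to a ratio of unstable to stable between 0.873 and 1.22. The difference was -0.028 without stable animal 2 and -0.015 without unstable animal 4, so its sign rested on either of these animals, and within slide 1 it was -0.11. Slide 1 held stable animal 5 and unstable animals 1 to 3, the older ones. Values within slide 1, here and below, thus rest on a single stable array and cannot be told apart from age.

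ADCY7 encodes an adenylyl cyclase that is prominent in blood cells and is stimulated by the alpha subunit of the stimulatory G protein. Its values were 7.58, 7.49, 7.60, 7.52 and 7.58 in stable animals and 7.59, 7.56, 7.56, 7.55 and 7.55 in unstable animals. The 10 animals lay within 0.12 log2 units, against a median range of 0.41 for the genes that exceeded background on at least 3 arrays, and the unstable animals lay inside the stable range. The difference was 0.007 (SE 0.03; limma adjusted p = 0.993), and its 95% confidence interval of -0.059 to 0.073 limits the ratio of unstable to stable to between 0.96 and 1.05. On a table without background subtraction such ratios understate those of the transcript.

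PDE4B and PDE4D encode cAMP-specific phosphodiesterases that end the cAMP signal in lymphocytes and myeloid cells, and cAMP itself raises the transcription of some of their isoforms. PDE4B had values of 7.17, 7.09, 7.08, 6.96 and 6.99 in stable animals and 7.04, 7.08, 6.94, 6.81 and 7.01 in unstable animals. Stable animal 1 was highest and unstable animal 4 lowest, and the latter was the sole animal below the background threshold. Over all 10 animals PDE4B had the largest absolute difference among the members, from 7.06 ± 0.085 (SD, n = 5) to 6.98 ± 0.109 (SD, n = 5), at -0.08 (SE 0.058; 95% confidence interval -0.21 to 0.048; limma adjusted p = 0.945). Without unstable animal 4 it was -0.0386, smaller in size than PRKACA (-0.0543), PRKAR1A (-0.0511) and CREM (0.0495) without the same animal. Within slide 1 it was 0.03, in the other direction, and without the 3 older unstable animals it was -0.149. PDE4D had values of 7.18, 7.05, 7.02, 6.75 and 6.94 in stable animals and 7.10, 7.03, 6.92, 6.85 and 6.93 in unstable animals. Stable animal 1 was again highest, and the lowest animals were stable animal 4 and unstable animal 4. Both of the latter were below background for PDE4D. The PDE4D difference was -0.022 (SE 0.077; 95% confidence interval -0.19 to 0.15; limma adjusted p = 0.991), and it was 0.026 without stable animal 1, 0.0076 without unstable animal 4 and 0.081 within slide 1.

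**Figure D2:**
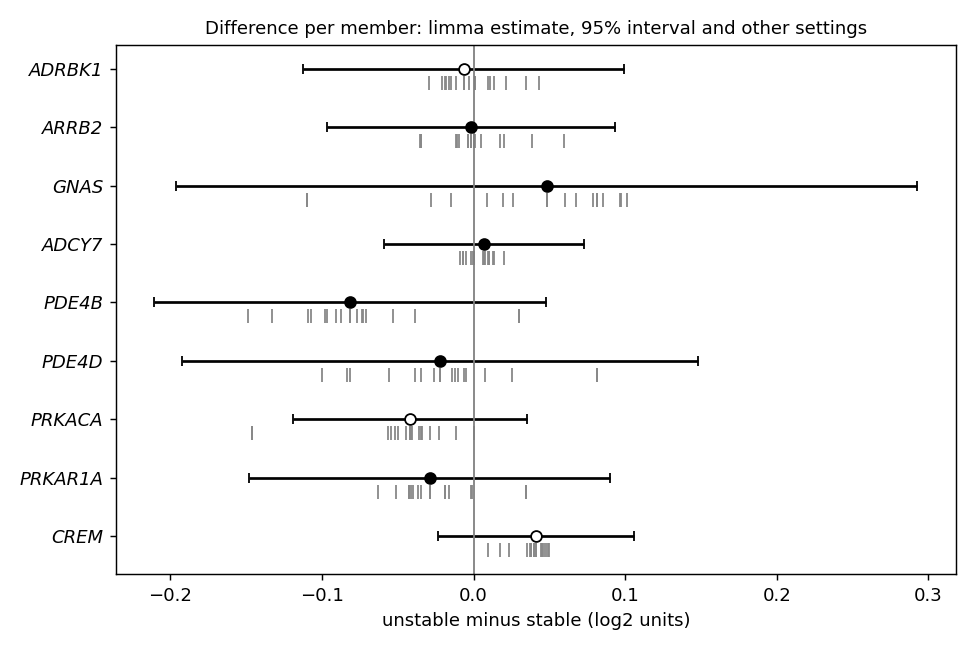
Difference between unstable and stable animals in log2 units (x axis) for each member, as the limma estimate with its 95% confidence interval, filled where the gene exceeded background on at least 3 arrays and open otherwise. Grey ticks give the same difference under the other settings of the gene-level fit. All 9 intervals include 0, and that of GNAS, from -0.20 to 0.29, is the widest.

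Protein kinase A is a tetramer of regulatory and catalytic subunits, and PRKAR1A encodes its type I alpha regulatory subunit, the form that predominates in lymphocytes. PRKAR1A had values of 8.72, 8.65, 8.47, 8.65 and 8.55 in stable animals and 8.53, 8.61, 8.62, 8.67 and 8.47 in unstable animals. The lowest animals of each group were level, and stable animal 1 was highest. The means were 8.61 ± 0.096 (SD, n = 5) and 8.58 ± 0.08 (SD, n = 5), a difference of -0.029 (SE 0.054; 95% confidence interval -0.15 to 0.09; limma adjusted p = 0.983), with 0.035 within slide 1. PRKACA encodes the alpha catalytic subunit, and its values were 6.86, 6.89, 6.82, 6.80 and 6.94 in stable animals and 6.82, 6.77, 6.79, 6.87 and 6.86 in unstable animals. Stable animal 5 alone exceeded the background threshold. The PRKACA difference was -0.042 (SE 0.035; 95% confidence interval -0.12 to 0.036; limma adjusted p = 0.954), and it was -0.146 within slide 1, where the 1 stable animal was that brightest one, and 0.00034 without the 3 older unstable animals.

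CREM encodes a cAMP response element modulator, whose short cAMP-induced isoform ICER represses cAMP-responsive promoters. Its values were 6.47, 6.52, 6.48, 6.49 and 6.52 in stable animals and 6.61, 6.54, 6.52, 6.50 and 6.51 in unstable animals. All 10 were below the threshold, with unstable animal 1 highest. The difference of 0.041 (SE 0.029; limma adjusted p = 0.945) is therefore one between background signals.

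For 7 of the 9 members the probes behind the gene row could be traced in the authors' intensity table, because the row equalled 1 probe or the mean of a pair of probes on all 10 arrays within 0.002 log2 units. ADRBK1, ADCY7, PDE4D and CREM rested on 1 probe each, and ARRB2, PRKACA and PRKAR1A on 2. GNAS and PDE4B matched no single probe or pair. Background in the intensity table was set by the same rule on its own log2 values. The brighter PRKAR1A probe was above background on all 10 arrays, by at least 2.38 log2 units, and the dimmer one on none, so the row follows the brighter probe. The probe differences were -0.029 (SE 0.063) and -0.037 (SE 0.041).

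The pair of PRKACA probes differed in opposite directions between the groups. On quantile-normalized log2 intensities, a scale slightly above that of the gene table, the dimmer probe stood at 6.98, 6.91, 6.84, 6.96 and 7.00 in stable animals and at 6.75, 6.71, 6.72, 6.86 and 6.83 in unstable animals. Stable animal 3 and unstable animal 4 were the animals at which the groups met, and the unstable animals of slide 1 were the lowest 3. This probe went from 6.94 ± 0.066 (SD, n = 5) to 6.78 ± 0.068 (SD, n = 5), a difference of -0.16 (SE 0.045) that did not pass over all 24526 probes (limma adjusted p = 0.918; unadjusted p = 0.0039, where 5.15% of probes had an unadjusted p under 0.05). It was above background on 3 arrays, those of stable animals 1, 4 and 5. Every unstable value behind this difference thus lay below background. The brighter PRKACA probe stood at 6.90, 7.01, 6.95, 6.79 and 7.04 in stable animals and at 7.02, 6.96, 6.99, 7.03 and 7.02 in unstable animals, a difference of 0.066 (SE 0.048; limma adjusted p = 0.929), and was above background on 7 arrays. Both probes thus exceeded the threshold of the intensity table on at least 3 arrays, while the PRKACA row, their mean, exceeded that of the gene table on 1, so the count of 6 members above background depends on the table used. The value of -0.042 for the gene row is thus an average over unlike probes. With normexp background correction and quantile scaling the probe differences became -0.421 and 0.16, and neither passed.

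ARRB2 also rested on probes that pointed different ways. The brighter one, above background on all 10 arrays, had values of 7.45, 7.26, 7.22, 7.20 and 7.31 in stable and 7.25, 7.20, 7.09, 7.14 and 7.49 in unstable animals, with a difference of -0.054 (SE 0.076; limma adjusted p = 0.961). Its highest animals were unstable animal 5 and stable animal 1. The dimmer probe, above background on 5 arrays, had values of 6.87, 6.88, 6.91, 7.03 and 6.87 in stable and 6.94, 6.96, 6.96, 7.06 and 6.96 in unstable animals, with a difference of 0.066 (SE 0.042; limma adjusted p = 0.929). Stable animal 4 was its exception, above all unstable animals but unstable animal 4.

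**Figure D3:**
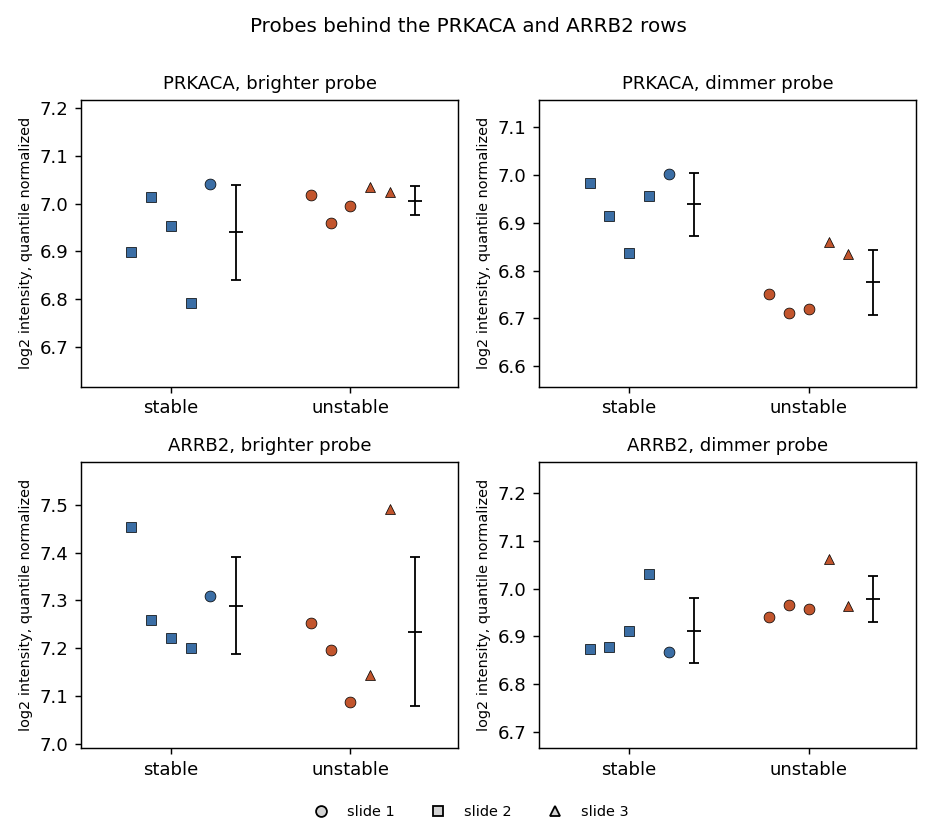
Quantile-normalized log2 intensity (y axis, each panel 0.6 log2 units high) of the brighter and the dimmer probe behind the PRKACA and ARRB2 rows, by animal, with marker shape for slide and bars for mean and SD. The dimmer PRKACA probe is lower by 0.16 in unstable animals, each of them below background, and the brighter one is higher by 0.066.

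The wider pathway was read from 12 lists of receptors, transducers, cAMP-degrading enzymes, kinases, anchors and target genes, which with the members held 137 different genes in the table. Of these, 68 exceeded background on at least 3 arrays. None of the 137 passed over all genes, 6 had an unadjusted p under 0.05 (4.38%, against 5.13% of all genes), 68 had higher and 69 lower means in unstable animals, and the median difference was -0.00028. The groups did not overlap for 1 of the 137 genes (0.73%), against 0.838% of all genes. Among the 68 above background 5 had an unadjusted p under 0.05, 3 higher and 2 lower, or 7.35% against 7.01% of all 8305 such genes.

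Receptors were mixed. Of 9 adrenergic receptor genes, 6 exceeded background on at least 3 arrays, 4 had higher and 5 lower means, and none had an unadjusted p under 0.05. ADRA2B, an alpha-2 adrenergic receptor that couples to inhibitory G proteins, differed by 0.13 (SE 0.071), and ADRA1D, an alpha-1 receptor, by -0.10 (SE 0.085), which was -0.0357 without stable animal 3. Of 16 further receptor genes that raise cAMP, 6 had higher and 10 lower means, or 2 and 3 of the 5 above background. PTGER4 encodes the prostaglandin E2 receptor EP4, which raises cAMP in lymphocytes and macrophages, and its values were 11.14, 10.94, 10.80, 10.72 and 10.83 in stable and 11.19, 10.22, 9.96, 10.01 and 10.08 in unstable animals. Unstable animal 1 was the highest of all 10, while the other 4 unstable animals lay below every stable animal. The PTGER4 difference of -0.59 (SE 0.21; 95% confidence interval -1.06 to -0.13) was the largest of the pathway genes in size, did not pass (limma adjusted p = 0.942; unadjusted p = 0.0173), and was -0.37 within slide 1 and -0.816 without unstable animal 1. GPBAR1, a bile acid receptor, differed by -0.11 (SE 0.119), and by -0.0315 without stable animal 3 and -0.0211 without stable animal 4.

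Among 7 receptor kinases and arrestins 2 had higher and 5 lower means, or 1 and 4 of the 5 above background. GRK5, a kinase of the GRK4 subfamily, had values of 9.62, 9.20, 9.0, 9.33 and 9.02 in stable and 8.99, 9.08, 8.92, 8.82 and 8.96 in unstable animals. Only unstable animal 2 lay above any stable animal, and stable animal 1 was highest. The GRK5 difference was -0.28 (SE 0.108; limma adjusted p = 0.942; unadjusted p = 0.0255), and it was -0.185 without stable animal 1 and -0.03 within slide 1. GRK6, a receptor kinase of immune cells, differed by -0.11 (SE 0.059). Of 19 G protein subunits 10 had higher and 9 lower means, or 6 and 6 of the 12 above background. None had an unadjusted p under 0.05, with GNB4 at -0.25 (SE 0.125) and GNG12 at 0.072 (SE 0.05).

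Of 9 adenylyl cyclases 6 had higher and 3 lower means, or 3 and 1 of the 4 above background. ADCY3 stood at 8.20, 8.12, 7.98, 8.34 and 8.47 in stable and at 8.53, 8.52, 8.53, 9.09 and 8.14 in unstable animals, with unstable animal 4 highest and unstable animal 5 within the stable range. Its difference was 0.34 (SE 0.154; limma adjusted p = 0.942; unadjusted p = 0.0499), 0.208 without unstable animal 4 and 0.061 within slide 1. Adipocyte markers were also highest in unstable animal 4, with a mean log2 value of 8.07 over 8 genes against 7.44 to 7.80 in the other 9 animals, and their part in the ADCY3 value was not tested. ADCY6 differed by 0.058 (SE 0.049), and by 0.0168 without unstable animal 4.

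Of 16 cAMP phosphodiesterases 7 had higher and 9 lower means, or 3 and 4 of the 7 above background. PDE7B, a cAMP-specific phosphodiesterase outside the PDE4 family, was the 1 pathway gene whose groups did not overlap, at 6.96, 7.00, 6.99, 6.87 and 6.91 in stable and 7.03, 7.29, 7.07, 7.22 and 7.05 in unstable animals. The nearest animals were stable animal 2 and unstable animal 1. The stable values lay close to the background threshold of 6.90, and that of stable animal 4 was below it. The PDE7B difference was 0.19 (SE 0.055; 95% confidence interval 0.064 to 0.31; unadjusted p = 0.0067) and did not pass over all genes (limma adjusted p = 0.918). It was 0.215 within slide 1, where stable animal 5 was the sole stable one, and 0.146 to 0.212 with any 1 animal left out. PDE2A, which cGMP stimulates to degrade cAMP, differed by 0.24 (SE 0.126) and by -0.0076 without the 3 older unstable animals.

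Of 10 protein kinase A subunits and inhibitor peptides 3 had higher and 7 lower means, or 2 and 2 of the 4 above background. The inhibitor gene PKIA was at 0.19 (SE 0.092) and PKIG at -0.056 (SE 0.042). PKIG had a mean of 6.88, just under the background threshold of 6.90, and was above background on 4 arrays. Of 15 A-kinase anchoring proteins, which hold the kinase at its sites in the cell, 9 had higher and 6 lower means. Of the 6 above background, 3 were higher and 3 lower. All 15 lay between -0.058 and 0.066. AKAP1 was at 0.066 (SE 0.124) and AKAP11 at 0.025 (SE 0.05). Of 4 genes of the Epac branch, through which cAMP acts without protein kinase A, 2 had higher and 2 lower means. Of the 3 above background, 1 was higher and 2 lower. RAPGEF4 was at -0.10 (SE 0.056) and RAP1A at 0.039 (SE 0.051). RAPGEF4 had a mean of 6.90, at the background threshold. It was above background in stable animals 2 to 5 but, among unstable animals, in unstable animal 4 alone. None of these 3 lists held a gene with an unadjusted p under 0.05 among those above background on 3 or more arrays.

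**Figure D4:**
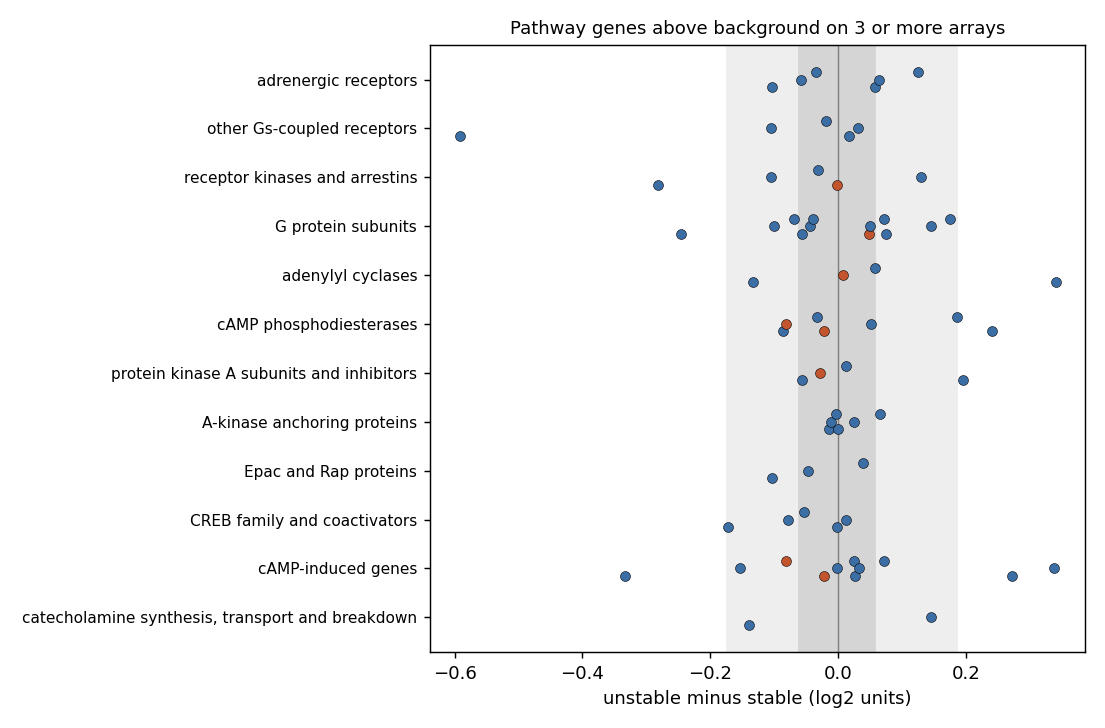
Difference between unstable and stable animals in log2 units (x axis) for the pathway genes above background on 3 or more arrays, 1 dot a gene, by list, with members in orange and other genes in blue. Dark and light grey bands hold the middle 50% and 90% of all 8305 genes so detected, and the dot farthest left is PTGER4 at -0.59.

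The transcriptional end of the pathway gave no call either. Of 7 genes of the CREB family and its coactivators 3 had higher and 4 lower means, or 1 and 4 of the 5 above background. The coactivator CRTC2 was at -0.079 (SE 0.058) and CREB1 at -0.17 (SE 0.244). CREB1 ranged from 9.21 in unstable animal 2 to 10.40 in unstable animal 5, with 10.31 in stable animal 4. Without stable animal 4 its difference was -0.0271, and without unstable animal 5 it was -0.383. Of 18 cAMP-induced genes 10 had higher and 8 lower means, or 6 and 5 of the 11 above background. CITED2, a transcriptional coregulator, stood at 9.11, 9.01, 9.48, 9.09 and 8.93 in stable and 9.58, 9.33, 9.63, 9.52 and 9.25 in unstable animals. Stable animal 3 was the sole stable animal above any unstable one. The CITED2 difference was 0.34 (SE 0.107; 95% confidence interval 0.10 to 0.57; limma adjusted p = 0.918; unadjusted p = 0.0095), and 0.583 within slide 1. RGS2, a G protein regulator, stood at 9.75 in stable animal 2 and at 8.24 to 8.53 in the other 9 animals, with a difference of -0.33 (SE 0.244) that was -0.0636 without stable animal 2. Among genes of catecholamine synthesis, transport and breakdown, MAOA, which encodes a degrading enzyme, differed by 0.15 (SE 0.136), and by 0.0564 without unstable animal 4 and 0.248 without stable animal 5.

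Slide and cell content set the limits of these comparisons. Stable animals 1 to 4 were on slide 2, stable animal 5 and unstable animals 1 to 3 on slide 1, and unstable animals 4 and 5 on slide 3, so that slide 1 alone held both groups, with 1 stable animal and the older unstable ones, and slide and condition cannot be told apart elsewhere. Mean log2 values of B cell markers ran from 8.76 to 9.03 in stable and 8.74 to 9.0 in unstable animals, those of T cell markers from 8.78 to 9.32 and 8.73 to 9.27, and those of macrophage markers from 8.88 to 9.42 and 8.95 to 9.16. Means were lower in unstable animals for 7 of 8 B cell, 4 of 7 T cell and 8 of 9 macrophage markers. Among those above background on at least 3 arrays, 4 of 5 B cell and 3 of 6 T cell markers were lower. All 7 macrophage markers above background on at least 3 arrays were among the lower ones, with a median difference of -0.14, and none of the 9 had an unadjusted p under 0.05. CD8 T and NK cell markers leaned the other way, 6 higher and 3 lower, with a median difference of 0.11. The 3 lower ones were CD8A (-0.106), CD8B (-0.036) and GZMB (-0.096), and the largest differences were those of GZMK (0.44) and GNLY (0.39). Mean log2 values of the whole list overlapped, from 7.65 to 7.96 in stable and 7.69 to 8.02 in unstable animals. All 9 CD8 T and NK cell markers were above background on at least 3 arrays, and 1 had an unadjusted p under 0.05. Fibroblast markers were 5 higher and 2 lower, or 3 and 2 of the 5 above background. Erythroid markers lay between 8.11 and 8.44 in stable and 7.88 and 8.21 in unstable animals, with all 7 measured genes lower in unstable animals. Of these 7, 4 were above background on no array, and 2 had an unadjusted p under 0.05. HBA2 differed by -0.94 and HBB by -0.83. Neutrophil markers lay between 7.08 and 7.78 and between 6.99 and 7.15, with 3 higher and 5 lower means and 1 unadjusted p under 0.05. Stable animals 2 (7.78) and 3 (7.54) were highest, and the other stable animals lay between 7.08 and 7.17. Of the 4 neutrophil markers above background on at least 3 arrays, 1 was higher (FCGR3B, 0.012) and 3 were lower. S100A9 among these differed by -1.49, the lowest difference of all genes. S100A8 differed by -0.13 and was above background on 1 array. None of these markers passed over all genes. The part of these cell types in the members' values was not tested, and in whole tissue fewer cells of a type and less RNA per cell cannot be told apart.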

How the data were processed

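Lymph node RNA of 10 male rhesus macaques was measured on Illumina HumanRef-8 v3 arrays, with 5 separate animals a group taken from the labels. The authors deposited intensity values of 24526 probes with no scaling across arrays ( medians of 104.5 to 118.6, no detection p-values) and log2 values for 18622 gene symbols with near-equal quantiles. Per the submitters' processing notes GenomeStudio was used, and the normalization is not given in the sources used here. The number of arrays limits the precision.

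Differences are unstable minus stable from limma 3.58.1 under R 4.3.3 (linear model with eBayes moderation, two-sided, no covariates, Benjamini-Hochberg over all genes, threshold 0.05), checked on simulated data, on the authors' log2 values as deposited. Symbols are the authors' and can be old. To trace probes, log2 intensities were quantile normalized and mapped to the authors' scale. That made 14625 gene rows equal to 1 probe within 0.002. Alternatives were slide, age label or replicate number in the fit, subsets of animals, genes or slides, other eBayes settings, array weights, and intensities with or without normexp (offset 16). Reading each probe of a pair on its own was added after the data were seen.

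The members and lists were chosen with earlier results of these data known. Pathway genes named are, of each list, the 2 of smallest p above background on 3 or more arrays, other than members. Of these, 1 gene chosen by this rule is not reported here. Likeness was sought for members above background on all 10 arrays. Animals with the same replicate number did not deviate together (correlations of -0.061 to 0.0073 for genes that exceeded background on at least 3 arrays). The main fit therefore treats no animals as pairs. Such correlations cannot show that the numbers hold no pairing, since pairs need not share expression. Figures were drawn with matplotlib 3.10.9.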

Additional observations from a re-analysis of the deposited data

Results flagged for a closer look

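Among 66 sets of 5 values (33 genes in 2 groups), 4 held an animal far from the other 4 by Dixon's test, where chance gives about 1 in 20, and none of the 4 was a member. PTGER4 was at 11.2 in unstable animal 1, against 10.2 in the next unstable animal. RGS2 was at 9.75 in stable animal 2, against 8.51 in the next stable animal. MAOA was at 9.37 in stable animal 5 (next 8.93), and ADCY6 at 7.08 in unstable animal 4 (next 6.90). ADCY6 was above background on 3 arrays, with a mean of 6.89 against a threshold of 6.90.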

How the results depend on the processing

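No member passed under any alternative that gave it a value, in 198 values with a smallest adjusted p of 0.739. GNAS and PDE4B, whose probes were not traced, had no value from intensities. ADRBK1, PRKACA and CREM had none in the fit limited to genes above background. Leaving out the replicate block, the other eBayes settings and the genes above background, which keep the estimate by construction, and counting slide 1 once, 130 of 165 values kept the direction. Many of these fits share all but 1 animal with the main fit, and both probes of a pair are counted. The share kept is thus high by construction and was not read as support. Under slide as a fixed block, whose estimate rests on slide 1 and equals that of slide 1 alone, though its error and p do not, the sign turned for ADRBK1 (0.00087), GNAS (-0.11), ADCY7 (-0.0071), PDE4B (0.0298), PDE4D (0.081), PRKAR1A (0.035), GPBAR1 (0.144), GNB4 (0.088), AKAP11 (-0.042), CREB1 (0.031) and MAOA (-0.282). With age label as a covariate it turned for ADRBK1 (0.035), ARRB2 (0.039), ADCY7 (-0.00066), RAP1A (-0.019) and CREB1 (0.011). Without the 3 older unstable animals it turned for ADRBK1 (0.043), ARRB2 (0.0598), ADCY7 (-0.0052), PRKACA (0.00034), PDE2A (-0.0076), RAP1A (-0.044) and CREB1 (0.122). From intensities it turned for the dimmer ARRB2 probe (0.066 with quantile, 0.156 with normexp and quantile, 0.175 with normexp and median), the brighter PRKACA probe (0.066, 0.16 and 0.185) and, with normexp and median, the brighter PRKAR1A probe (0.0301). The cause was not tested. With 1 animal left out, values ran from -0.029 to 0.021 for ADRBK1, -0.035 to 0.0202 for ARRB2, -0.028 to 0.097 for GNAS, -0.0091 to 0.0198 for ADCY7, -0.109 to -0.0386 for PDE4B, -0.082 to 0.026 for PDE4D, -0.0566 to -0.0227 for PRKACA, -0.0629 to -0.00095 for PRKAR1A, 0.0234 to 0.0495 for CREM and -0.015 to 0.162 for AKAP1. Other genes that moved by over 1.5 times kept their sign, at 0.0926 to 0.19 for ADRA2B, -0.142 to -0.0357 for ADRA1D, -0.16 to -0.0211 for GPBAR1, -0.341 to -0.185 for GRK5, 0.0497 to 0.112 for GNG12, 0.208 to 0.447 for ADCY3, 0.0168 to 0.0812 for ADCY6, -0.0817 to -0.0366 for PKIG, 0.0035 to 0.0604 for AKAP11, -0.136 to -0.0646 for RAPGEF4, 0.0102 to 0.0652 for RAP1A, -0.116 to -0.0455 for CRTC2, -0.383 to -0.0271 for CREB1, -0.436 to -0.0636 for RGS2 and 0.0564 to 0.248 for MAOA. Over all genes, 1 passed with slide as a fixed block (MRPL38) and 1 without the 3 older unstable animals (HSBP1), both named after their values were seen, and 0 under each other setting. With slide as a random block the estimated correlation was -0.084, and 0 genes passed. The replicate block gave 0 genes and 0 members, and PDE4B stayed at -0.08 (limma adjusted p = 0.946). Of the 9 members, 7 were above background at the mode plus 2 SDs, 6 at plus 4 SDs, and 4 on all 10 arrays. Fold changes of dim genes are compressed, since the table has no background subtraction.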

Other observations

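For the 4 members above background on all 10 arrays, the genes with the most similar pattern over the 10 animals were sought among 6378 others above background on all arrays, as a description with no test. The highest Pearson correlations of PRKAR1A were with MEF2C, a B cell and myeloid transcription factor (r = 0.945, and 0.895 without the 2 animals farthest from the PRKAR1A median), PTK2B, a tyrosine kinase (r = 0.909), and UBE4A (r = 0.89). GNAS was most like PLTP, a phospholipid transfer protein (r = 0.929, and 0.938 without the 2 farthest animals), LGI2 (r = 0.924) and MRLC2 (r = 0.921). ADCY7 was most like ZNF671 (r = 0.945), RPL23AP7 (r = 0.908) and CWF19L2 (r = 0.888). ARRB2 was most like PRPF4B, a splicing kinase (r = 0.908, and 0.714 without the 2 farthest animals), HTLF (r = 0.859) and JUN (r = 0.846). The last pair fell to 0.203 and 0.043 without the 2 farthest animals, so those likenesses rested on them. All 10 animals share these arrays and their scaling, and the best of so many genes is high by selection.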
